A study of Mus musculus with 14 samples.

Results

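The comparison described here is Si2AK against the control siRNA SiC in mSCC-38 cells, 72 h after transfection. Its members were taken from the transfection labels: 3 arrays of cells given Si2AK and 3 arrays of cells given SiC, 6 of the 14 arrays of the series. mSCC-38 is a mouse cell line isolated from a skin squamous cell carcinoma that had been induced chemically with DMBA and TPA. Si2AK and Si1AK are 2 distinct siRNAs directed at the transcript AK144841, and the question put by the design is what each does to the transcriptome. The other 8 arrays are 4 of cells given Si1AK and 4 of cells that were not transfected (NT).

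All transfected cells received their siRNA with the lipid reagent RNAimax, so SiC cells share the reagent and the RNA load with Si2AK cells, and NT cells share neither. All cells grew in 35 mm dishes in DMEM with 10% serum, all RNA had an integrity number of 9, and 600 ng of Cy3-labelled product was hybridised to an Agilent 1-colour array. All samples come from this single cell line, and the labels do not say whether the numbered samples came from separate transfections, so each p-value rests on the spread among these cultures, and that spread may be only technical. No probe is named AK144841 on the array; the level of the targeted transcript was not analysed here, and no sequence of either siRNA was used here.

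A small interfering RNA guides the RNA-induced silencing complex to transcripts that pair with it, and it can also lower other transcripts that pair with its seed. Keratinocytes, the cells from which squamous carcinomas arise, divide in the basal layer of the epidermis and then switch to making the cornified envelope, a shell of cross-linked small proteins encoded by a gene cluster called the epidermal differentiation complex. The same cells make chemokines, EGF receptor ligands and stress keratins when the skin is wounded. The integrated stress response is a separate programme in which phosphorylation of the translation factor eIF2 favours translation of Atf4, whose targets include the genes of amino acid synthesis and the regulators Ddit3, Trib3 and Chac1.

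Levels below are log2 signals relative to the 75th percentile of the same array, so a level of 0 is as bright as that percentile, and levels of different probes are not compared. A gene was tested if any of its probes was well above background on every SiC array or on every Si2AK array, which left 20922 genes. The brightest of the probes that passed stood for the gene. Differences are Si2AK minus SiC on the log2 scale, with n = 3 arrays in each group, ± SE of the limma fit. The fit estimates the spread of a gene over all 14 arrays, so the NT and Si1AK arrays also enter the SE and the p-value. A gene is said to be called, or to rise or fall, where its limma p-value adjusted over all 20922 genes was below 0.05. Values for the arrays of a group are in order of replicate number, which was not used to pair arrays in the main fit.

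SiC replicate 1 and Si2AK replicate 2 stood apart from the other arrays. Their median processed signals were 262.8 and 103.0, against 21.6 to 55.7 on the other 12 arrays. On SiC replicate 1 90.5% of probes were well above background, on Si2AK replicate 2 84.8%, and on the other arrays 51.8% to 59.4%. The totals over all genes and the values of many lists and genes are therefore also given without both arrays, which leaves 2 against 2. The arrays lay on 2 slides: slide 1 held Si2AK replicates 1 and 2 and SiC replicate 1, and slide 2 held Si2AK replicate 3 and SiC replicates 2 and 3. Of 12 keratinocyte markers 9 passed the filter on low signal, with a mean level of 5.85 to 6.32 on the SiC arrays and 6.60 to 6.76 on the Si2AK arrays, while Cdh1, Dsc2 and Dsg2 did not pass, and 6 of the 9 were called higher with Si2AK and 0 lower (2 higher without SiC replicate 1 or without Si2AK replicate 1, and 3 without Si2AK replicate 3). Fibroblast, leukocyte, endothelial and melanocyte markers passed in 6 of 9, 5 of 9, 4 of 8 and 4 of 8 cases, and among these 19 genes, where 12.4% of all genes tested were called, Pdgfra (0.87 ± 0.16, limma adjusted p = 0.00479) and Mitf (1.0 ± 0.22, limma adjusted p = 0.0128) were called. The means of the fibroblast markers spanned -3.37 to -2.01 in SiC and -3.13 to -1.89 in Si2AK, those of the melanocyte markers -2.07 to -0.87 and -1.94 to -1.16, and Ptprc, Sox10, Vwf and Lum did not pass the filter. The part of cell mixture in the results was not tested. In total RNA from whole dishes, fewer cells of a kind and less RNA per cell cannot be told apart.

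With Si2AK 1799 genes were called higher and 788 lower than with SiC, 12.4% of the 20922 tested, with 8.6% called higher and 3.77% called lower. The change was at least 2-fold for 256 of the higher and 138 of the lower genes. Of 39 gene lists described here, the 8 with the largest shares called higher were keratinocyte markers (6 of 9 tested), integrated stress response (15 of 24), EGF receptor (8 of 13), stefin and serpin (11 of 18), prostaglandin (6 of 10), hemidesmosome and basal (10 of 17), cytokine (15 of 27) and cornified envelope genes (18 of 35). Against NT, in the same order, 2, 15, 7, 7, 5, 4, 20 and 16 members were called higher, and 1 prostaglandin gene lower. Of all genes 7.63% were called higher against NT and 6.38% lower. The 3 with the largest shares called lower were DNA replication (31 of 47), the carboxylesterase 2 cluster (2 of 4) and fork protection and repair genes (18 of 43). Fgf21, Atf3, Cth, Xbp1 and some others stand in more than 1 list. The median difference over all genes tested was 0.02. Without both outlying arrays 10.4% of genes were called, 1339 (6.4%) higher and 847 (4.05%) lower, and 1156 and 573 of the first calls were kept. Without Si2AK replicate 1 there were 950 and 513. Scaling on the probes well above background on all arrays moved the median of all genes from 0.02 to -0.14 and the calls to 1466 higher and 1928 lower, or 7.01% and 9.22% of genes and 16.2% in all, so that 43.2% of calls were higher in place of 69.5%, and quantile normalization gave 1753 and 1388 (55.8% higher). A fit of the 6 arrays alone called 8 genes (0.0382%) higher and 0 lower, with 3159 genes at an unadjusted p below 0.05. These 8 were Cxcl2, Hist2h3c2, Nppb, Dhrs9, Galnt3, Hbegf, Gjb2 and Fam78b, each at a limma adjusted p of 0.0288. Within slide 1 alone 798 genes (3.81%) were called higher and 306 (1.46%) lower, 5.28% in all, and within slide 2 139 (0.664%) and 98 (0.468%), 1.13% in all. Each slide holds only 1 array of 1 of the groups, SiC replicate 1 on slide 1 and Si2AK replicate 3 on slide 2, which is assumed to vary like the other groups there, and both outlying arrays lie on slide 1. The values within a slide are therefore a description.

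**Figure D1:**
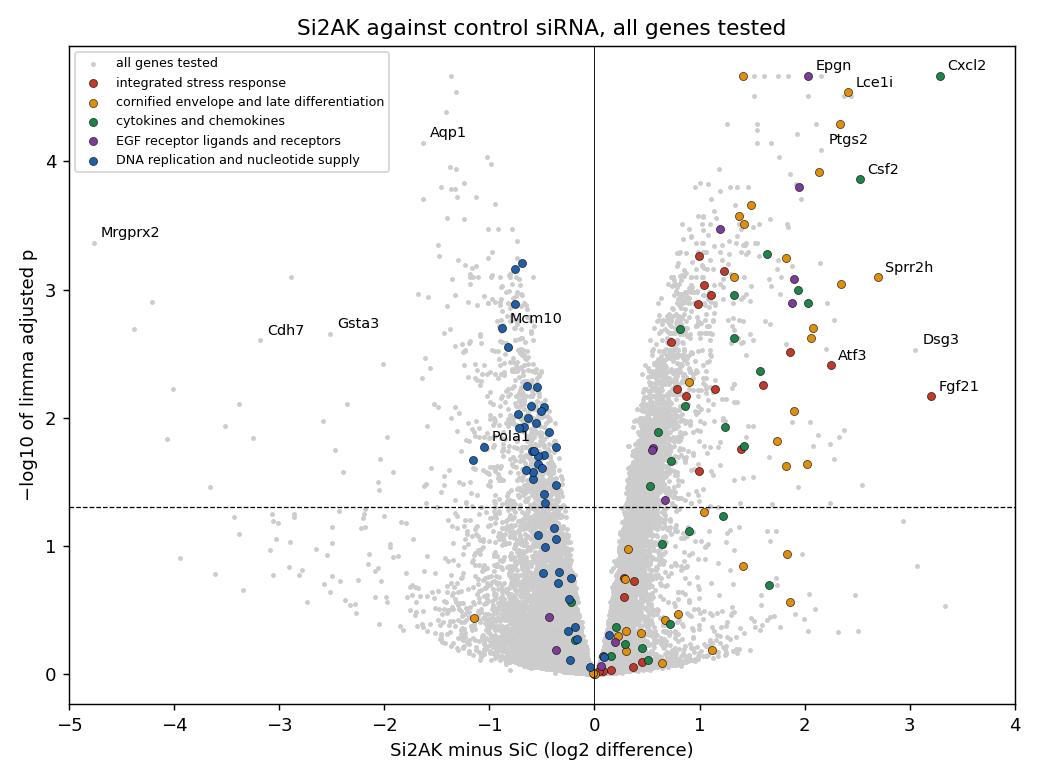
Each point is a gene tested, with the log2 difference of Si2AK minus SiC (3 arrays each) on the x axis and -log10 of the limma adjusted p on the y axis; colours mark 5 gene lists and the dashed line an adjusted p of 0.05. Cxcl2, Epgn and Lce1i lie at the top right, Mrgprx2 lies farthest to the left, and most replication genes lie on the left close to 0, such as Mcm10 at -0.88.

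**Figure D2:**
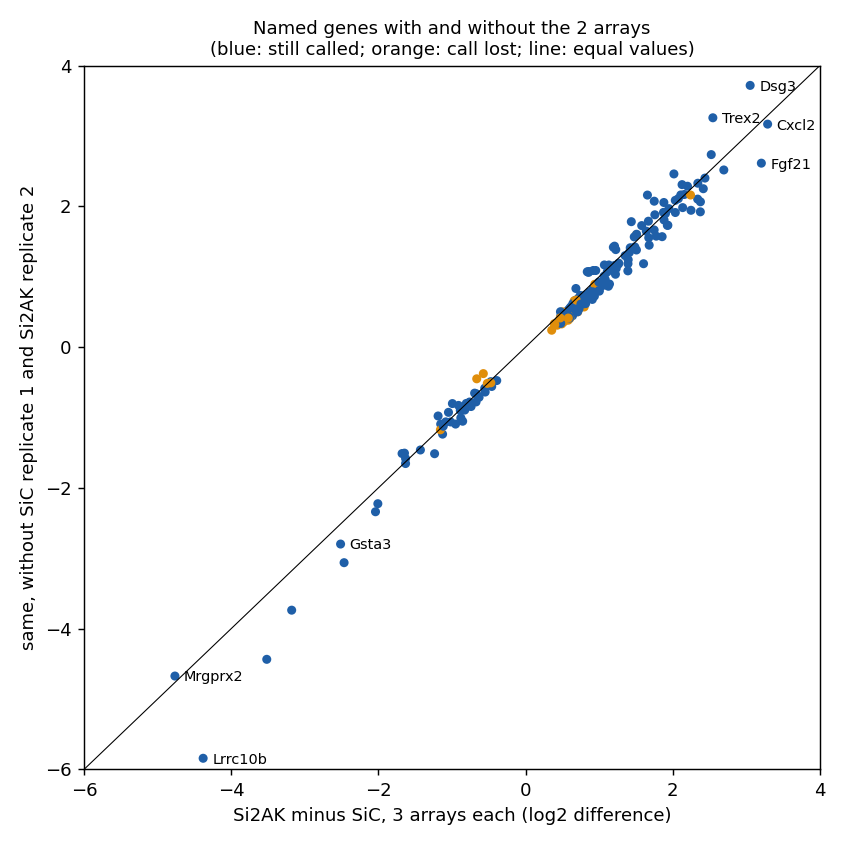
Each point is 1 of the 203 named genes that were called, with its log2 difference over all 6 arrays on the x axis. The y axis shows the difference without SiC replicate 1 and Si2AK replicate 2. All 203 kept their sign, 173 kept their call (blue) and 30 lost it (orange).

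The chemokines and cytokines that keratinocytes release to draw in and feed white blood cells were higher in Si2AK cells. Of 29 genes on this list 27 were tested, 15 rose and 0 fell, with a median difference of 0.86 against 0.02 over all genes. Cxcl2, which attracts neutrophils, had levels of -1.07, -1.07 and -0.58 in SiC and 2.16, 2.46 and 2.52 in Si2AK. That is a difference of 3.29 ± 0.23, or 9.79-fold (limma adjusted p = 2.15e-05). All 3 Si2AK values lay above all 3 SiC values, which was true of 17.1% of genes tested. Its NT levels were -1.78 to -1.18 and its Si1AK levels -1.64 to -0.79, so only the Si2AK arrays were above 0.

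Its neighbour Cxcl1 rose from 3.92, 4.56 and 4.94 to 6.18, 6.26 and 6.78 (1.94 ± 0.26, limma adjusted p = 0.00102). Cxcl5 rose by 1.24 ± 0.27 and Cxcl3 by 0.73 ± 0.18 (limma adjusted p = 0.0118 and 0.0216). Csf2, the granulocyte-macrophage growth factor, was at -1.27, -1.31 and -1.34 in SiC and at 0.98, 0.84 and 1.85 in Si2AK, a rise of 2.52 ± 0.24 (limma adjusted p = 0.000138). Csf3, the growth factor of granulocytes, went from 1.08, 1.76 and 2.21 to 3.57, 3.37 and 4.22 (2.04 ± 0.29, limma adjusted p = 0.00127). In neither gene did the groups overlap. The interleukins Il1a (1.64 ± 0.20), Il24 (1.58 ± 0.28), Il33 (1.33 ± 0.18) and Il1b (0.81 ± 0.13) rose with limma adjusted p-values of 0.000529, 0.00428, 0.0011 and 0.00202. Il6 (0.90 ± 0.30, limma adjusted p = 0.0768), Tnf (0.72 ± 0.48, limma adjusted p = 0.409) and Vegfa (0.65 ± 0.23, limma adjusted p = 0.0962) did not pass the test.

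Without both outlying arrays 13 cytokine genes were called higher, Cxcl2 with a difference of 3.17 (limma adjusted p = 0.000387), and Il11, Csf1 and Il34 lost their calls. Against NT, a baseline that shares the Si2AK arrays but none of the SiC arrays, 20 rose and 0 fell, with a median of 1.42. Of all genes 14% were called in that comparison, 7.63% higher and 6.38% lower. These were 2930 genes, and 1962 were called without Si2AK replicate 2. List counts against NT, here and below, include that array. Against Si1AK directly, 13 members were higher with Si2AK and 0 lower, where 5.84% of genes were called higher and 5.31% lower.

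The EGF receptor ligands formed another group, and several are neighbours of the Cxcl genes on chromosome 5. In mm9, the build of the array's annotation, the probes of Cxcl5, Cxcl3, Cxcl1, Cxcl2, Epgn, Ereg and Areg follow each other between 91190490 and 91570149 on chr5. All 7 rose. Between them lie the chemokine gene Ppbp, which rose by 1.84 (limma adjusted p = 0.000325), and the folate enzyme gene Mthfd2l, which differed by 0.36 (limma adjusted p = 0.20). The next ligand on the list, Btc, has its probe at chr5:91786948-91787007 and differed by -0.43 ± 0.26 (limma adjusted p = 0.355). Of the 13 ligands, receptors and feedback genes tested, 8 rose and 0 fell, with a median of 0.55, and 5 rose without Si2AK replicate 1.

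Epgn (epigen) had levels of 4.26, 4.49 and 4.54 in SiC and 6.63, 6.20 and 6.57 in Si2AK, a 4.1-fold rise (2.04 ± 0.14, limma adjusted p = 2.15e-05). Ereg (epiregulin) went from 2.39, 2.81 and 2.95 to 4.68, 4.30 and 5.01 (1.95 ± 0.19, limma adjusted p = 0.000159). Areg (amphiregulin) went from 2.08, 2.0 and 1.94 to 3.96, 4.12 and 3.59 (1.88 ± 0.27, limma adjusted p = 0.00127). Hbegf, which is shed from the cell surface in wounds, lay between 2.81 and 2.85 on the SiC arrays and between 4.66 and 4.79 on the Si2AK arrays (1.90 ± 0.25, limma adjusted p = 0.00082). For these 4 ligands the lowest Si2AK array was above the highest SiC, NT and Si1AK array. Nrg1, a ligand of the receptors Erbb3 and Erbb4, rose by 1.19 ± 0.13, Tgfa by 0.55 ± 0.13, the receptor Egfr by 0.55 ± 0.13 and the inhibitor Errfi1 by 0.67 ± 0.20 (limma adjusted p = 0.000335, 0.0171, 0.0179 and 0.0439). Errfi1 was not called without both outlying arrays (limma adjusted p = 0.168), and the other 7 were.

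Prostaglandin synthesis was represented by Ptgs2, the inducible cyclooxygenase, at 3.74, 4.15 and 4.25 in SiC and 6.19, 5.88 and 6.56 in Si2AK. Its rise of 2.16 ± 0.19 (4.46-fold, limma adjusted p = 8.11e-05) left a gap between the groups, and the NT and Si1AK arrays, at 3.71 to 4.07 and 3.94 to 4.34, lay with SiC. Ptger4, a receptor of prostaglandin E2, went from -2.41, -3.28 and -2.87 to -0.82, -1.31 and -1.18 (1.75 ± 0.21, limma adjusted p = 0.000586). Ptgs1, the constitutive cyclooxygenase, rose by 0.91 ± 0.20 (limma adjusted p = 0.0114). In all 6 of 10 tested members of the list rose and 0 fell, and 3 were called without both outlying arrays or without Si2AK replicate 1. After quantile normalization 2 members were called lower.

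Of 28 tested immediate early genes and phosphatases that switch off MAP kinases 12 rose (median 0.42), 1 fell and 15 were not called. Fos, a subunit of the transcription factor AP-1, lay between -1.47 and -1.44 in SiC and at 0.02, -0.16 and 0.21 in Si2AK (1.48 ± 0.21, limma adjusted p = 0.00122). Dusp8, a phosphatase of stress-activated kinases, went from -1.19, -1.35 and -1.02 to 1.21, 0.81 and 0.74 (2.11 ± 0.17, limma adjusted p = 5.08e-05), while its Si1AK levels were -1.53 to -0.97. Rgs16, a brake on G protein signalling, rose by 1.67 ± 0.26 (limma adjusted p = 0.00184) to levels that also occurred with Si1AK (3.66 to 4.42), and the difference between the siRNAs was -0.04 (limma adjusted p = 0.931). Dusp5 rose by 1.21 ± 0.24 (limma adjusted p = 0.00709). Dusp7, a phosphatase of ERK, was the single member called lower, where 3.77% of all genes were (-0.47 ± 0.14, limma adjusted p = 0.0441). Egr1 (0.90 ± 0.41, limma adjusted p = 0.193), Fosl1 (0.38 ± 0.14, limma adjusted p = 0.097) and Myc (0.23 ± 0.09, limma adjusted p = 0.125) did not pass the test.

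Of 14 tested NF-kB subunits and feedback inhibitors 7 rose and 0 fell, with a median of 0.43. NF-kB switches on many cytokine genes and its own inhibitors. The inhibitors Tnfaip3 (0.94 ± 0.23, limma adjusted p = 0.0187) and Nfkbia (0.80 ± 0.21, limma adjusted p = 0.0304) and the subunit Relb (0.66 ± 0.15, limma adjusted p = 0.0129) led the called members. Without both outlying arrays 2 of the 14 were called, Relb and Nfkbib, and Tnfaip3 and Nfkbia then had limma adjusted p-values of 0.0638 and 0.0607. With 1 array left out, 3 were called without SiC replicate 1, 4 without Si2AK replicate 2 and 2 without Si2AK replicate 3. Against NT 9 were called higher.

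**Figure D3:**
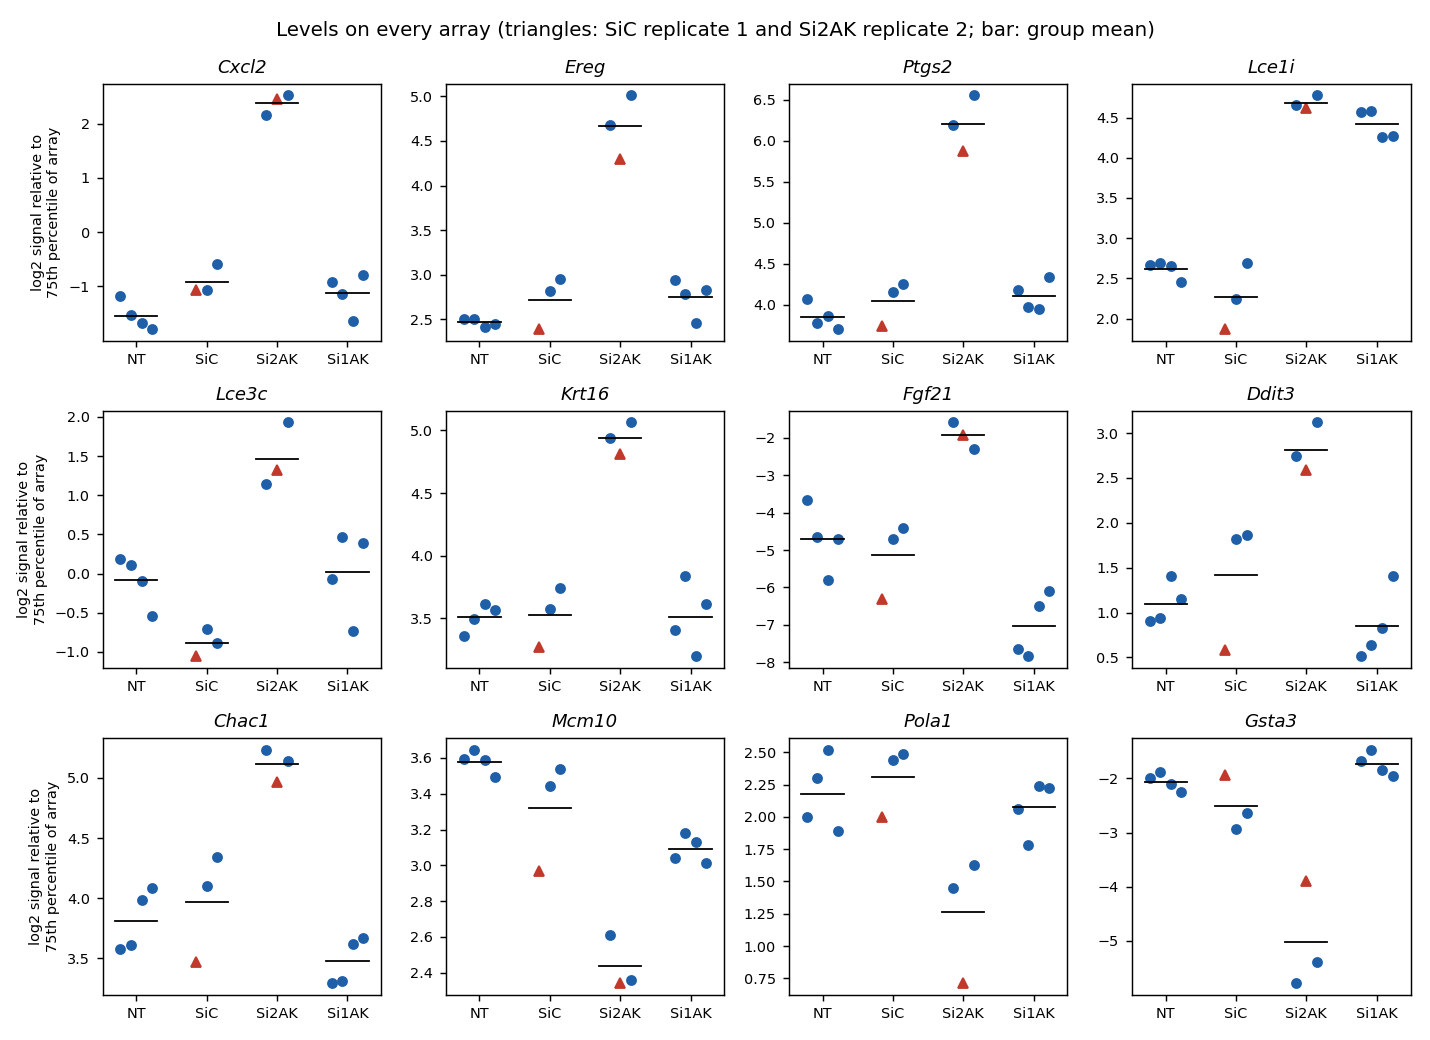
Levels of 12 genes on all 14 arrays (y axis, log2 signal relative to the 75th percentile of the array; x axis, group), each point 1 array and each bar the group mean; triangles are SiC replicate 1 and Si2AK replicate 2. Cxcl2, Ereg, Ptgs2 and Krt16 are higher on the Si2AK arrays than on any other array, Lce1i is high on the Si2AK and Si1AK arrays, and Mcm10, Pola1 and Gsta3 are low on the Si2AK arrays.

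Genes of the cornified envelope rose with Si2AK. Of the 53 genes on this list 35 passed the filter on low signal, 18 rose and 0 fell. The median difference was 1.42, within slide 1 1.33 and within slide 2 1.54, against 0.06 and 0.02 over all genes. Late markers Lor, Flg, Flg2, Hrnr and Krt1 did not pass the filter, so the list is covered in part.

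Lce1i, a late cornified envelope protein, had levels of 1.87, 2.24 and 2.69 in SiC and 4.66, 4.62 and 4.78 in Si2AK (2.42 ± 0.18, 5.34-fold, limma adjusted p = 2.89e-05). Lce1g went from 2.78, 3.39 and 3.74 to 5.54, 5.60 and 5.79 (2.34 ± 0.19, limma adjusted p = 5.08e-05) and Lce1c from 0.48, 1.20 and 1.36 to 3.06, 2.92 and 3.46 (2.14 ± 0.20, limma adjusted p = 0.000121). All 3 genes were also higher with Si1AK than with SiC, by 2.15, 2.05 and 2.02 (limma adjusted p = 9.02e-05, 0.000136 and 0.000209). Si2AK minus Si1AK was 0.26 for Lce1i, 0.29 for Lce1g and 0.12 for Lce1c, with limma adjusted p-values of 0.389, 0.384 and 0.736. The probes of the 7 called Lce1 genes shared runs of at most 17 bases with each other. Whether a probe also reads the transcript of another Lce1 gene was not tested, so the 7 values may not be independent.

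The Lce3 genes are induced in wounded skin. Lce3c went from -1.05, -0.70 and -0.89 in SiC to 1.14, 1.32 and 1.93 in Si2AK (2.34 ± 0.31, limma adjusted p = 0.000897), and was higher than with Si1AK by 1.45 (limma adjusted p = 0.00753). Lce3b rose by 2.08 ± 0.32 and Lce3d by 2.06 ± 0.33 (limma adjusted p = 0.00198 and 0.0024). The array probes of these close copies share sequence, so the 3 values are not independent and each is uncertain. The runs that the probe of Lce3b has in common with the other probes are shown for that reason.
Lce3b and Lce3c: TCAAGAAAAGCCCAGCTAGTCTTGTTTT
Lce3b and Lce3d: TCTTGTTTTGTCTGATCCTGGA
These are 28 and 22 of 60 bases, printed in capitals because all of them are shared.

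Several genes of small proline-rich proteins, which cross-link the envelope, rose as well. Sprr2h was at -2.45, -1.65 and -1.26 in SiC and at 0.67, 0.60 and 1.46 in Si2AK (2.70 ± 0.35, limma adjusted p = 0.0008). Sprr1a went from 0.07, 0.35 and 0.56 to 1.75, 1.67 and 1.83 (1.42 ± 0.16, limma adjusted p = 0.000308), and Sprr2k rose by 1.37 ± 0.14 (limma adjusted p = 0.000269). Crct1, encoded beside the Lce3 genes, went from 0.01, -0.73 and -0.53 to 1.14, 1.42 and 1.66 (1.82 ± 0.22, limma adjusted p = 0.000563). Ivl (involucrin, 0.32 ± 0.12, limma adjusted p = 0.106), Krt10 (0.29 ± 0.13, limma adjusted p = 0.18) and Casp14 (-0.02 ± 0.16, limma adjusted p = 0.978) did not pass. For Casp14, a protease of the cornified layer, the Si1AK arrays stood at 0.93 to 1.58 and Si2AK minus Si1AK was -1.94 on the log2 scale (limma adjusted p = 1.72e-05). Without both outlying arrays 15 envelope genes were called, and Lce3a, Lce1f and Sprr2g were not. Lce3a and Lce1f were not well above background on every SiC array, so their differences rest in part on signal near background.

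Among keratins and S100 proteins of wounded or stressed epidermis 7 of 20 rose and 0 fell (median 0.45), and 4 rose without Si2AK replicate 2 or without both outlying arrays. Krt16, a keratin of hyperproliferating skin, went from 3.27, 3.57 and 3.74 to 4.94, 4.81 and 5.06 (1.41 ± 0.16, limma adjusted p = 0.000448). S100a14 rose from 2.79, 3.12 and 3.0 to 4.18, 4.2 and 4.33 (1.27 ± 0.16, limma adjusted p = 0.000634) and S100a16 by 1.08 ± 0.10 (limma adjusted p = 0.000151). S100a9, a subunit of the neutrophil-attracting dimer calprotectin, rose by 1.51 ± 0.40 (limma adjusted p = 0.029), but not when both outlying arrays were left out (limma adjusted p = 0.0762). Its partner S100a8 differed by 0.04 ± 0.20 (limma adjusted p = 0.956). Krt6a (0.70 ± 0.37, limma adjusted p = 0.275) and Krt18 (0.26 ± 0.12, limma adjusted p = 0.198) did not pass.

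Of 18 tested stefins, cystatins and clade B serpins, which inhibit cysteine and serine proteases, 11 rose and 0 fell (median 0.53), and 7 rose without Si2AK replicate 1 or without Si2AK replicate 3. Stfa1 went from -0.08, -0.46 and -0.55 to 1.33, 1.69 and 2.29 (2.13 ± 0.48, limma adjusted p = 0.0136), and the other stefins Cstdc5, Stfa2 and Stfa2l1 rose by 1.88 ± 0.40, 1.51 ± 0.24 and 1.44 ± 0.32 (limma adjusted p = 0.0107, 0.00247 and 0.0141). These are close copies on chromosome 16. Their 4 probes shared runs of at most 9 bases with each other, and whether a probe also reads the transcript of another copy was not tested. Serpinb1a, an inhibitor of neutrophil proteases, went from 1.89, 2.70 and 2.84 to 4.31, 4.06 and 4.39 (1.78 ± 0.23, limma adjusted p = 0.0008). Serpinb2 rose by 1.35 ± 0.15 and Serpinb5 (maspin) by 1.03 ± 0.13 (limma adjusted p = 0.000382 and 0.000649).

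Of 14 tested desmosome and epithelial junction genes 5 rose and 0 fell, but 2 rose without Si2AK replicate 1 and 3 without Si2AK replicate 3. The largest difference among them was that of Dsg3, a cadherin of desmosomes. Its levels were -3.13, -5.74 and -4.81 in SiC and -1.5, -1.41 and -1.61 in Si2AK (3.05 ± 0.51), and SiC was well above background on 2 of 3 arrays. Dsg3 thus passed the filter only through Si2AK, and its difference is a description. The NT and Si1AK arrays, at -5.50 to -4.61 and -5.85 to -5.14, were all below the Si2AK arrays. Gjb2, the connexin 26 gene, went from 0.60, 0.56 and 0.70 to 2.63, 2.39 and 2.46 (1.88 ± 0.23, limma adjusted p = 0.000659), and Dsp, the desmosomal plaque protein, rose by 0.68 ± 0.17 (limma adjusted p = 0.0241). Pkp1, a desmosomal plaque protein of the armadillo family, rose by 0.44 ± 0.12 (limma adjusted p = 0.0377).

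Hemidesmosome and basal keratinocyte genes rose in 10 of 17 cases and fell in 0 (median 0.43). The number that rose was 6 without SiC replicate 1, 5 without Si2AK replicate 1, 6 without Si2AK replicate 3 and 7 without both outlying arrays, and 5 rose and 1 fell in the authors' value table. Against NT 4 of the 17 were called higher and 0 lower, with a median of 0.23. The median against SiC was 0.66 within slide 1, where SiC replicate 1 is the only SiC array, and 0.35 within slide 2. Lama3 (0.92 ± 0.12, limma adjusted p = 0.00092) encodes a chain of laminin-332, the anchor of basal cells. Col17a1, a transmembrane collagen of hemidesmosomes, went from 4.35, 5.05 and 4.94 to 5.85, 5.75 and 5.90 (1.05 ± 0.16, limma adjusted p = 0.00172). Trp63, the master regulator of stratified epithelia, rose by 0.61 ± 0.17 (limma adjusted p = 0.0332), but its 4 probes ranged from -0.04 to 0.61. Of the basal keratins, Krt14 rose by 0.39 ± 0.10 (limma adjusted p = 0.0254) and lost its call without both outlying arrays (limma adjusted p = 0.102), and Krt5 differed by 0.14 ± 0.12 (limma adjusted p = 0.564).

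Among regulators of epithelial and mesenchymal fate 5 of 22 rose and 0 fell (3 rose without Si2AK replicate 1). Grhl1, a transcription factor of desmosomal and envelope genes, went from -0.87, -1.45 and -1.30 to 0.57, 0.64 and 0.44 (1.76 ± 0.16, 3.38-fold, limma adjusted p = 9.29e-05). Esrp2, which directs epithelial splicing, went from 0.33, 0.60 and 0.71 to 1.84, 1.75 and 1.83 (1.26 ± 0.10, limma adjusted p = 5.08e-05). For both genes NT (-1.55 to -1.13 and 0.64 to 0.80) and Si1AK (-1.5 to -1.36 and 0.85 to 1.01) lay below all Si2AK arrays. Klf4, a factor of the barrier-forming layers, rose by 0.55 ± 0.13 (limma adjusted p = 0.0169). Of the mesenchymal genes Snai2 rose by 0.65 ± 0.16 (limma adjusted p = 0.0202), while Vim (0.18 ± 0.13, limma adjusted p = 0.436) and Zeb1 (-0.28 ± 0.15, limma adjusted p = 0.284) did not pass.

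The integrated stress response list had 15 of its 24 members called higher with Si2AK and 0 lower, with a median of 0.93. The same number, 15, was called without both outlying arrays (median 0.87) and 15 against NT (median 1.03). Against Si1AK directly 18 were higher with Si2AK and 0 lower. Within slide 1 the median was 1.21 with 15 called, and within slide 2 it was 0.92 with 2 called.

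Several of these genes are known targets of Atf4, which pairs with C/EBP factors on a composite element. The element was searched in RefSeq promoters of GRCm38.p6 (300 bases each, of which 250 lie before the gene start) as TGATGNAAN on both strands. It occurred in 3.95% of 32851 promoters, and in 8 of the 22 list genes with a promoter in the table, 36.4%. Of these 8 genes 6 were called, and of all 22 genes 13 were. The first share counts promoters and the second counts genes with a match in any promoter. Known targets are on the list by choice, so the share describes the list, and a tie to the response was not tested. The promoters of 3 called genes are printed 5′ to 3′ on the strand of the gene, with the match in capitals, because these genes were among the larger differences and carry the element.
Fgf21, chr7:45615441-45615740, minus strand: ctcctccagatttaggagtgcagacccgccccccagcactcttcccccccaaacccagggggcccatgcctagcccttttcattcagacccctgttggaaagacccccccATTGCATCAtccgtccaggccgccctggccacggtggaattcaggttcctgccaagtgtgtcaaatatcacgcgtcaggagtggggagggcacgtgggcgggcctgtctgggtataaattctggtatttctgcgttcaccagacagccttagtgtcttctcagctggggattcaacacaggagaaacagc
Chac1, chr2:119350992-119351291, plus strand: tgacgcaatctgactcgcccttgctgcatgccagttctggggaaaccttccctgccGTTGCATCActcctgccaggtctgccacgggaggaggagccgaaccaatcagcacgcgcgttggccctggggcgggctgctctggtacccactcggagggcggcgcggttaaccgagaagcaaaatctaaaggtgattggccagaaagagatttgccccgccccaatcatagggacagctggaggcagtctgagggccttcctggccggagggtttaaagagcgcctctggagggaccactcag
Atf3, chr1:191183284-191183583, minus strand: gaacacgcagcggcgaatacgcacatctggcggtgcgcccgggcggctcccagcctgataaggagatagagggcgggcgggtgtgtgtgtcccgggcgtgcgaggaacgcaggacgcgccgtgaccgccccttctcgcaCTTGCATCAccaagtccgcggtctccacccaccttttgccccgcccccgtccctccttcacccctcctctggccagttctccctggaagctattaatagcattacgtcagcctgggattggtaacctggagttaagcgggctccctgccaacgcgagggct
The matches begin at positions -140, -194 and -111 relative to the gene start and read on the opposite strand. A match says that these letters are present, and it was not measured whether a factor binds there.

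Fgf21, a stress-induced hormone, was dim in SiC at -6.32, -4.71 and -4.42, not well above background on replicate 1, and stood at -1.60, -1.93 and -2.30 in Si2AK (3.21 ± 0.62). It passed the filter only through Si2AK, so its difference is a description. NT was at -5.81 to -3.67 and Si1AK at -7.83 to -6.10, both below Si2AK, and without both outlying arrays the difference was 2.61. Atf3, a transcription factor induced by Atf4 and other stress signals, went from -0.33, 0.98 and 1.07 to 2.62, 2.53 and 3.32 (2.25 ± 0.39, limma adjusted p = 0.00388). Chac1, which degrades glutathione, went from 3.47, 4.10 and 4.34 to 5.24, 4.97 and 5.14 (1.15 ± 0.22, limma adjusted p = 0.0059). In all 3 genes SiC replicate 1 was the lowest SiC array, which widens the difference, and the groups were separate without it too.

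Several regulators that act with or after Atf4 rose. Ddit3 (CHOP) had levels of 0.58, 1.82 and 1.87 and 2.74, 2.59 and 3.12, a rise of 1.39 ± 0.33 (limma adjusted p = 0.0176) and of 1.08 without both outlying arrays (limma adjusted p = 0.033). Ppp1r15a (GADD34), the phosphatase subunit that reverses eIF2 phosphorylation, went from 1.72, 2.90 and 2.99 to 4.24, 4.15 and 4.79 (1.86 ± 0.31, limma adjusted p = 0.00309). Trib3, a pseudokinase that restrains Atf4, went from 3.59, 4.75 and 4.61 to 5.64, 6.03 and 6.10 (1.60 ± 0.30, limma adjusted p = 0.00553). Herpud1, a factor of endoplasmic reticulum degradation, rose by 1.23 ± 0.16, the eIF2 kinase Eif2ak3 (PERK) by 1.11 ± 0.15 and Atf5 by 0.99 ± 0.14 (limma adjusted p = 0.000718, 0.00111 and 0.00128). Sesn2, which restrains the growth kinase mTORC1, rose by 1.04 ± 0.14 (limma adjusted p = 0.000927). Atf4 itself was at 7.53, 8.17 and 8.03 in SiC and 8.11, 8.31 and 8.43 in Si2AK, a difference of 0.37 ± 0.17 that did not pass (limma adjusted p = 0.189). Gdf15 (0.16 ± 0.51, limma adjusted p = 0.917) and the sensor Eif2ak4 (0.04 ± 0.16, limma adjusted p = 0.937) did not pass either.

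Of 20 genes of amino acid and one-carbon synthesis 8 rose and 0 fell. Aldh1l2, a mitochondrial folate enzyme, went from 0.21, 0.92 and 1.19 to 2.22, 1.97 and 2.66 (1.51 ± 0.33, limma adjusted p = 0.0116), and Mthfd2 rose by 1.0 ± 0.14 (limma adjusted p = 0.00127). Cth, which makes cysteine from cystathionine, rose by 1.0 ± 0.12 (limma adjusted p = 0.000545), and its Si1AK levels of 1.62 to 1.64 lay below the NT levels of 2.09 to 2.30. Psph, the last enzyme of serine synthesis, rose by 0.78 ± 0.12 (limma adjusted p = 0.00171), whereas the first enzyme, Phgdh, differed by 0.11 ± 0.12 (limma adjusted p = 0.656) and Psat1 by 0.26 ± 0.11 (limma adjusted p = 0.174). Asns, asparagine synthetase, went from 6.66, 7.27 and 7.10 to 7.55, 7.69 and 7.71 (0.64 ± 0.14, limma adjusted p = 0.0131). For Aldh1l2 and Asns the outlying SiC replicate 1 was the lowest SiC array, which widens the difference. The same held for many other genes that rose, among them Ddit3, Ppp1r15a, Trib3, Cxcl1, Csf3, Lce1i, Lce1g, Lce1c, Sprr2h, Serpinb1a, H2bc4 and Car6. For Csf2, Areg, Ptger4 and Nppb it was the highest SiC array.

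Amino acid transporters rose in 8 of 16 cases and fell in 1. Slc7a3, a carrier of cationic amino acids, went from -2.54, -2.13 and -2.30 to -1.08, -1.10 and -0.53 (1.42 ± 0.19, limma adjusted p = 0.000803) and Slc6a9, a glycine carrier, from 2.96, 3.49 and 3.59 to 4.69, 4.66 and 4.87 (1.40 ± 0.20, limma adjusted p = 0.00117). Slc3a2 and Slc7a5, the chains of the large neutral amino acid carrier, rose by 0.82 ± 0.17 and 0.73 ± 0.09 (limma adjusted p = 0.00959 and 0.000803). Slc1a4, a carrier of serine and alanine, rose by 0.71 ± 0.14 (limma adjusted p = 0.00883). Slc7a7 fell from -1.62, -1.66 and -1.76 to -2.30, -2.39 and -2.42 (-0.69 ± 0.12, limma adjusted p = 0.00321). The cystine carrier Slc7a11 differed by 0.08 ± 0.33 (limma adjusted p = 0.938).

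Cytosolic aminoacyl-tRNA synthetases, which charge tRNAs, rose in 8 of 22 cases and fell in 0, by at most 0.60 ± 0.13 (Wars, limma adjusted p = 0.0132). Without both outlying arrays 4 were called, and with 1 array left out 5 were called without SiC replicate 1, 2 without Si2AK replicate 1, 5 without Si2AK replicate 2 and 3 without Si2AK replicate 3. The authors' value table gave 3. Nars kept its call (0.55 ± 0.11, limma adjusted p = 0.00869), whereas Sars did not (limma adjusted p = 0.0654). SiC replicate 1 was the lowest SiC array for Wars, Nars and Sars. The list's median was 0.60 within slide 1, where SiC replicate 1 is the only SiC array, and 0.24 within slide 2. Against NT 5 of the 22 were called higher and 1 lower.

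Of 24 tested chaperones and degradation factors of the endoplasmic reticulum 9 rose and 0 fell (4 rose without Si2AK replicate 1). Dnajb9, a co-chaperone induced by Xbp1, went from 0.76, 1.18 and 1.47 to 2.63, 2.37 and 2.87 (1.49 ± 0.20, limma adjusted p = 0.000938), with its 2 probes at 0.77 and 1.49. Xbp1, the transcription factor of the unfolded protein response, rose by 0.79 ± 0.15 (limma adjusted p = 0.00592). Syvn1, a ubiquitin ligase of the endoplasmic reticulum, rose by 0.83 ± 0.17, and Derl1 by 0.73 ± 0.13 (limma adjusted p = 0.00926 and 0.00416). Hspa5 (BiP), the main chaperone there, rose by 0.57 ± 0.16 (limma adjusted p = 0.0323) and had a limma adjusted p of 0.0704 without both outlying arrays. The chaperone Hsp90b1 differed by 0.03 ± 0.24 (limma adjusted p = 0.976).

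**Figure D4:**
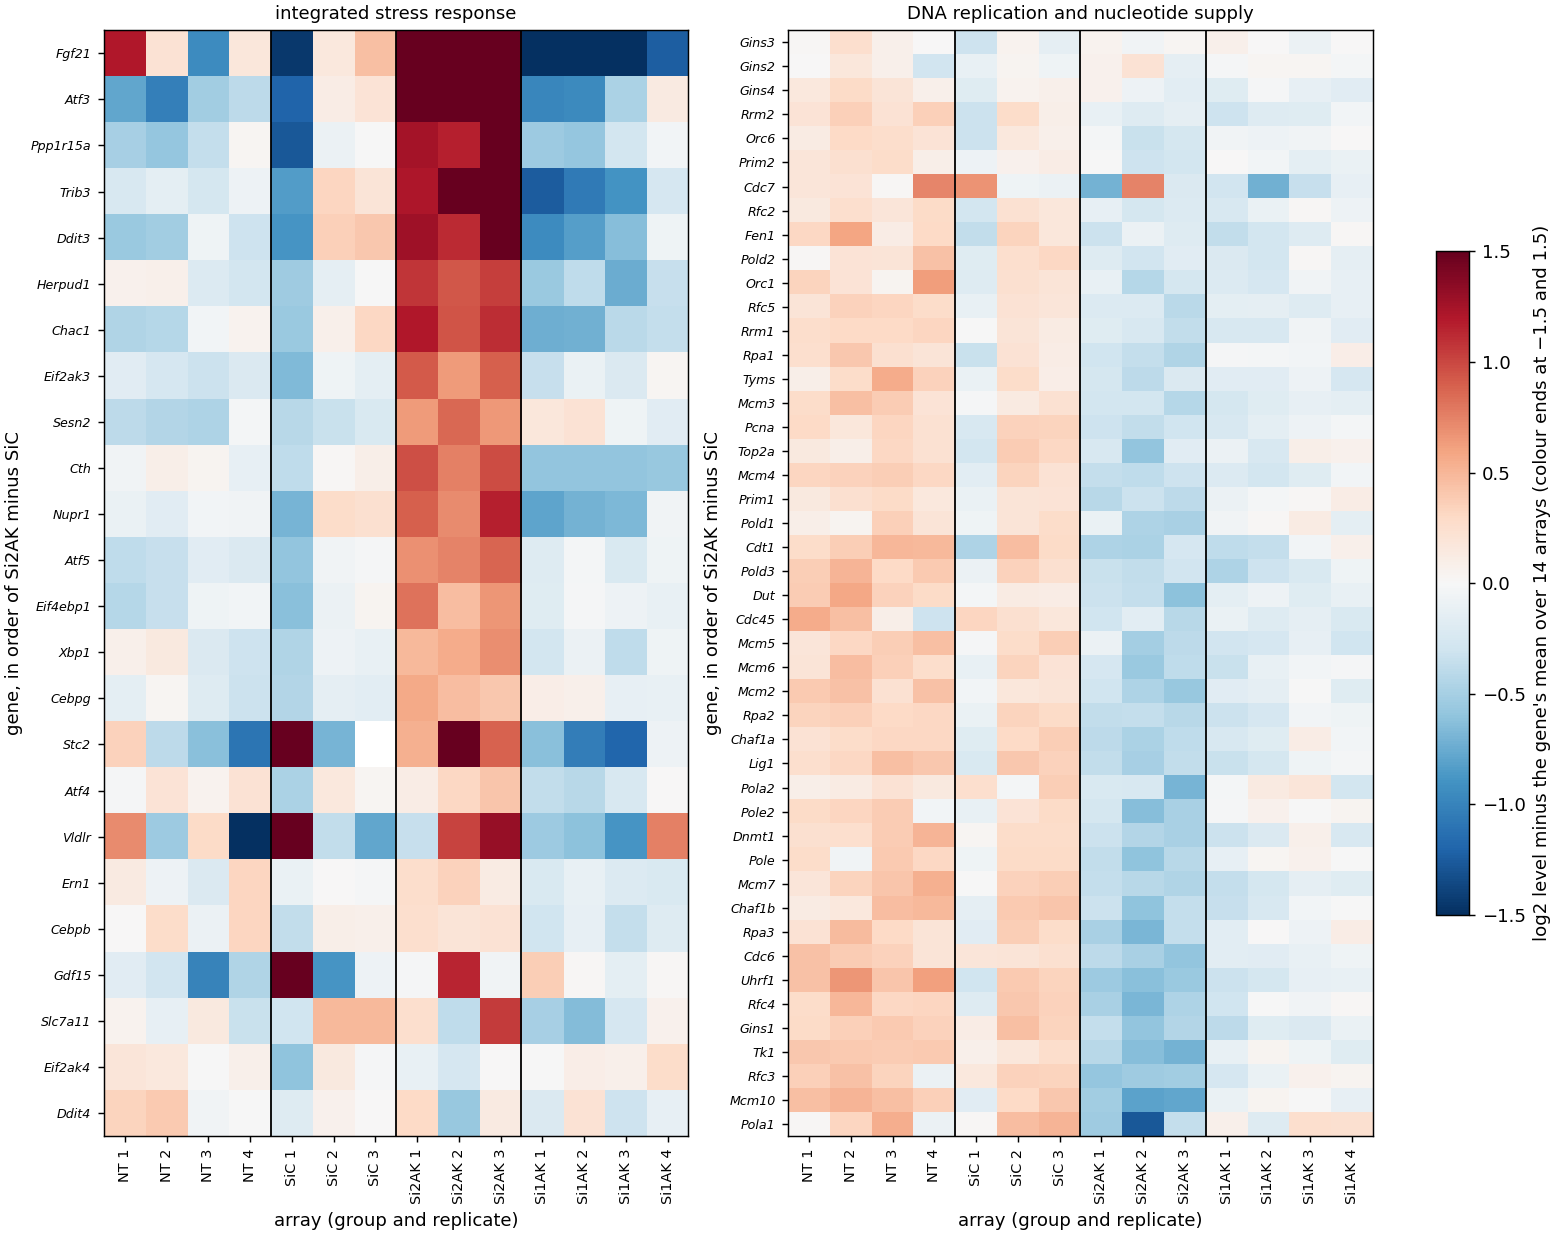
Levels of the 24 integrated stress response genes (left) and 46 of the 47 replication genes (right) on each of the 14 arrays (x axis), coloured by log2 level minus the gene's mean over the arrays, with genes (y axis) in order of Si2AK minus SiC. The Si2AK columns are red for most stress genes and blue for most replication genes, and SiC replicate 1 is bluer than the other SiC arrays in many stress genes; white in the row of Stc2 is a missing value.

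Secreted hormones outside that response included Nppb, the B-type natriuretic peptide, which went from 1.46, 1.28 and 1.11 to 3.60, 3.49 and 3.35 (2.20 ± 0.36, limma adjusted p = 0.00291). Its Si1AK levels were 2.55 to 3.79, and Si2AK minus Si1AK was 0.28 (limma adjusted p = 0.655). Pthlh, a parathyroid hormone relative made by keratinocytes, went from 4.91, 5.21 and 5.08 to 6.28, 6.10 and 6.15 (1.11 ± 0.11, limma adjusted p = 0.000195). Of 16 tested genes on this list 5 rose and 0 fell.

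DNA replication and nucleotide supply genes were lower with Si2AK. All 47 genes of the list were tested, 31 fell and 0 rose, with a median of -0.51. Without both outlying arrays 32 fell (median -0.61), and against NT 39 fell (median -0.68). With 1 array left out, 17 fell without SiC replicate 2, 18 without SiC replicate 3, and 19 without Si2AK replicate 2 or without Si2AK replicate 3. The median within slide 1 was -0.26 with 0 members called, where SiC replicate 1 is the only SiC array, and within slide 2 it was -0.65 with 4 called. Against Si1AK directly 9 were lower with Si2AK and 0 higher.

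Many replication genes are activated by E2F factors. An E2F site, searched as TTTGGCGC, TTTCCCGC, TTTGCCGC or TTTCGCGC on both strands, occurred in 2.26% of the 32851 promoters. It was in 16 of the 39 replication genes with a promoter in the table, 41.0%. Of these 16 genes 13 were called, and of all 39 genes 27 were. The E2F site was in 0 of the 22 stress list genes with a promoter, and the Atf4 element was in 1 of the 39 replication genes. As above, these shares describe the lists, and a tie to the response was not tested. Promoters of 3 called genes follow in the same form, chosen because they carry the site and encode parts of the origin licensing machinery.
Cdc6, chr11:98907901-98908200, plus strand: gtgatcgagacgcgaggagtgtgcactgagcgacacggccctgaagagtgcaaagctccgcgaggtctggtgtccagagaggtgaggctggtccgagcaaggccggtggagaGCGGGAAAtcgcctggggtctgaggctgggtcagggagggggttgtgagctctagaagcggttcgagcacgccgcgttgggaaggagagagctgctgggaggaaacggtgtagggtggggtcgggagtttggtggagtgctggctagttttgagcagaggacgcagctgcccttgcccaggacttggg
Mcm6, chr1:128359656-128359955, minus strand: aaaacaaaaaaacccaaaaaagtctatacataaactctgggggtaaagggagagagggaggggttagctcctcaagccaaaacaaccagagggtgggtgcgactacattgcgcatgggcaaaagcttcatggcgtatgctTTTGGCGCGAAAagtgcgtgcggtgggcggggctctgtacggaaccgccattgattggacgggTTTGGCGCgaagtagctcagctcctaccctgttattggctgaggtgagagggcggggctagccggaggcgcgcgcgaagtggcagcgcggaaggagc
Mcm7, chr5:138171834-138172133, minus strand: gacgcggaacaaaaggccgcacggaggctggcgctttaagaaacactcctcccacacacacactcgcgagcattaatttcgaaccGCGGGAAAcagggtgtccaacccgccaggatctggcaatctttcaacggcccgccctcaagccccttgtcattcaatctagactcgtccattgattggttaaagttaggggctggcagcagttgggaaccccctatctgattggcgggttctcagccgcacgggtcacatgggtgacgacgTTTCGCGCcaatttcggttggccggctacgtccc
The first capitals of Mcm6 hold a pair of overlapping matches, on opposite strands. The matches describe these windows only, and E2F binding was not measured.

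Cdc6, which loads the replicative helicase, had levels of 1.22, 1.22 and 1.27 in SiC and 0.64, 0.55 and 0.45 in Si2AK (-0.69 ± 0.09, limma adjusted p = 0.000618). The helicase subunits Mcm7 and Mcm6 fell by 0.64 and 0.54 on the log2 scale (limma adjusted p = 0.00569 and 0.023), Mcm7 from 5.52, 5.88 and 5.90 to 5.18, 5.12 and 5.08. Mcm10, which activates the helicase, went from 2.97, 3.44 and 3.54 to 2.61, 2.34 and 2.36 (-0.88 ± 0.14, limma adjusted p = 0.00201). Its NT levels were 3.49 to 3.65, and Si2AK minus NT was -1.14 (limma adjusted p = 0.000211). In Cdc6, Mcm7 and Mcm10 all Si2AK arrays lay below all SiC arrays, which was true of 7.62% of all genes tested.

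Pola1, the catalytic subunit of the polymerase that starts new strands, went from 2.0, 2.44 and 2.49 to 1.45, 0.71 and 1.62 (-1.05 ± 0.25, limma adjusted p = 0.0168). Si2AK replicate 2 was its lowest array, and without both outlying arrays the difference was -0.93 (limma adjusted p = 0.0217). Among the clamp loader and nucleotide genes, Rfc3 went from 1.49, 1.68 and 1.67 to 0.75, 0.80 and 0.81 (-0.83 ± 0.14, limma adjusted p = 0.0028) and Tk1, thymidine kinase, from 5.02, 5.11 and 5.21 to 4.53, 4.30 and 4.23 (-0.76 ± 0.10, limma adjusted p = 0.000687). Pcna, the sliding clamp, fell by 0.47 (limma adjusted p = 0.0458). Top2a (-0.48 ± 0.17, limma adjusted p = 0.102) and Rrm2 (-0.16 ± 0.13, limma adjusted p = 0.532) did not pass.

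Fork protection, cohesion and repair genes fell in 18 of 43 cases and rose in 1, Rad51c (0.60 ± 0.15, limma adjusted p = 0.0201), which was not called without both outlying arrays. Timeless, a fork protection factor, went from 2.81, 3.21 and 3.20 to 2.09, 1.71 and 2.07 (-1.12 ± 0.16, limma adjusted p = 0.00133), and its partner Tipin from 4.52, 4.97 and 4.87 to 4.05, 3.84 and 4.15 (-0.78 ± 0.13, limma adjusted p = 0.00367). Clspn, which relays the fork signal to the kinase Chek1, went from -0.02, -0.26 and -0.24 to -1.12, -1.09 and -1.04 (-0.91 ± 0.16, limma adjusted p = 0.00348), but the Si1AK arrays overlapped with Si2AK at -1.29 to -0.72. Esco2, an acetyltransferase of cohesin, fell by 1.19 and Rad54l, a recombination motor, by 0.95 on the log2 scale (limma adjusted p = 0.0025 and 0.000217). Brca1 (-0.75 ± 0.37, limma adjusted p = 0.239) did not pass. Against NT 24 of the 43 fell and 0 rose. Against Si1AK directly 9 were lower with Si2AK and 1 higher, with a median of -0.17, where 5.31% of all genes were lower and 5.84% higher.

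Of 40 tested mitosis genes 6 fell and 0 rose (median -0.28), within slide 1 0 were called (median 0.02), and without both outlying arrays 10 fell. With 1 array left out, 16 fell without SiC replicate 1, 3 without SiC replicate 2, 2 without SiC replicate 3 and 1 without Si2AK replicate 3. Against NT 18 of the 40 fell and 0 rose. Against Si1AK directly 0 were lower with Si2AK and 1 higher, with a median of 0.005, so no fall relative to the other siRNA was seen. Bub1b, a kinase of the spindle checkpoint, fell by 0.39 (limma adjusted p = 0.0307). Foxm1, a transcription factor of mitotic genes, fell by 0.55 (limma adjusted p = 0.0204) and Kif2c, a microtubule depolymerase, by 0.55 (limma adjusted p = 0.0131). Cdk1 (0.03 ± 0.20, limma adjusted p = 0.966), Ccnb1 (-0.27 ± 0.16, limma adjusted p = 0.328) and Mki67 (-0.51 ± 0.53, limma adjusted p = 0.652) did not pass. With scaling on the probes well above background on all arrays 22 mitosis, 41 replication and 31 fork protection and repair genes were called lower, where 9.22% of all genes were. After quantile normalization 21, 40 and 29 were, so the numbers for mitosis and for fork protection and repair depend on the scaling.

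Of 19 tested G1 regulators the inhibitor Cdkn1a (p21) rose by 0.64 ± 0.15 (limma adjusted p = 0.015), its 3 probes ranging from -0.23 to 0.64, and Ccnd3 fell from 4.73, 5.07 and 5.05 to 4.32, 4.27 and 4.24 (-0.67 ± 0.11, limma adjusted p = 0.00321). E2f4 fell by 0.47 (limma adjusted p = 0.0478) but not without both outlying arrays. With scaling on the probes well above background on all arrays 7 of the 19 were called lower, and after quantile normalization 4. Among 34 genes known as p53 targets 10 rose and 2 fell (6 rose without Si2AK replicate 1). The kinases Plk3 (2.54, 3.19 and 3.23 in SiC and 5.0, 4.86 and 4.88 in Si2AK; 1.93 ± 0.16, limma adjusted p = 6.13e-05) and Plk2 (1.13 ± 0.12, limma adjusted p = 0.000244) rose, Pidd1 fell by 1.08 (limma adjusted p = 0.00263), and the p53 antagonist Mdm2 differed by 0.26 ± 0.21 (limma adjusted p = 0.532). The death receptor gene Tnfrsf10b rose by 0.88 ± 0.12 (limma adjusted p = 0.00114). Compared with Si1AK, 10 of the 34 were lower with Si2AK and 3 higher.

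Replication-dependent histone genes split, with 6 of 16 called higher and 3 lower. The lower calls numbered 1 without Si2AK replicate 1, and 5 without both outlying arrays or after quantile normalization. H2bc4 went from 2.36, 3.12 and 3.11 to 5.26, 5.36 and 5.10 (2.38 ± 0.18, 5.2-fold, limma adjusted p = 3.08e-05), the linker histone gene H1f2 rose by 1.68 ± 0.23 (limma adjusted p = 0.000939) and the linker histone gene H1f1 went from 1.0, 1.42 and 1.41 to -0.30, 0.32 and 0.11 (-1.24 ± 0.21, limma adjusted p = 0.00301). Hist2h3c2, a histone H3 gene named outside the list, went from -1.84, -1.64 and -1.49 to 0.87, 0.67 and 0.81 (2.44 ± 0.19, limma adjusted p = 3.08e-05). Histone genes are near-identical copies and most of their mRNAs end in a stem-loop without a poly(A) tail, so each value may mix copies and reflect the tailed share.

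Of 25 tested actin and contractile genes 8 rose and 0 fell (5 rose without Si2AK replicate 1). Acta2, smooth muscle actin, went from 4.14, 4.40 and 4.39 to 6.17, 6.05 and 5.95 (1.75 ± 0.11, 3.36-fold, limma adjusted p = 2.15e-05), and Cnn1, calponin, rose by 1.23 ± 0.16 (limma adjusted p = 0.000825). Acta2 was also higher with Si1AK than with SiC (5.25 to 5.52, a difference of 1.09, limma adjusted p = 0.000252), and Si2AK exceeded Si1AK by 0.66 (limma adjusted p = 0.00185). Of 19 tested YAP and TGF-beta targets 3 were called higher, 1 lower and 15 neither, and 1 was called higher without Si2AK replicate 1. Ankrd1 rose by 1.19 ± 0.27 (limma adjusted p = 0.0153), Thbs1 fell from 3.37, 3.71 and 3.67 to 2.74, 2.51 and 2.84 (-0.89 ± 0.16, limma adjusted p = 0.00455), and Ccn2 differed by 0.02 ± 0.14 (limma adjusted p = 0.971). Among matrix proteases 5 of 21 rose and 0 fell (3 rose without SiC replicate 1 or without Si2AK replicate 1). Mmp13, a collagenase, spread widely, from 0.16, 1.76 and 1.98 in SiC to 3.07, 2.57 and 4.99 in Si2AK (2.24 ± 0.66, limma adjusted p = 0.0459), and was not called without both outlying arrays (limma adjusted p = 0.0654). Adamts1 rose by 1.39 ± 0.23 and the urokinase gene Plau by 0.81 ± 0.15 (limma adjusted p = 0.0026 and 0.0044).

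In the remaining lists the shares called ran from below to above the background of 12.4%. Of 28 cholesterol synthesis genes 1 rose and 0 fell. Of 30 hypoxia and glycolysis genes 5 rose (3 without Si2AK replicate 1), among them Ndrg1 (1.22 ± 0.26, limma adjusted p = 0.0104) and Hk2 (0.78 ± 0.13, limma adjusted p = 0.00247). Of 19 Notch pathway genes 2 rose, the ligand Jag1 (0.47 ± 0.11, limma adjusted p = 0.0177) and Rfng (0.75 ± 0.14, limma adjusted p = 0.00575), and Dtx4 fell (-0.63 ± 0.11, limma adjusted p = 0.00338). Of 33 NRF2 and glutathione genes 3 rose (1 without Si2AK replicate 1 or without Si2AK replicate 2) and 2 fell (6 after quantile normalization): Gsta3 and Mgst1 (-1.02 ± 0.18, limma adjusted p = 0.00452), both glutathione transferases. Hmox1 differed by 1.59 ± 0.85 (limma adjusted p = 0.286), with Si2AK at 4.84, 4.77 and 4.85 above SiC at 2.79, 3.48 and 3.43, and its NT arrays spanned -0.91 to 3.18. On the interferon list 18 of 23 genes were not called, with Oasl1 (1.14 ± 0.13, limma adjusted p = 0.000461), Isg15 (0.90 ± 0.17, limma adjusted p = 0.00592) and Ifit1 (0.86 ± 0.21, limma adjusted p = 0.0207) higher and Mx1 (-1.43 ± 0.23, limma adjusted p = 0.00218) and Oas1a (-0.74 ± 0.13, limma adjusted p = 0.00411) lower. Of 15 heat shock genes 4 rose (2 without Si2AK replicate 1), led by the small chaperone Cryab (1.89, 2.29 and 2.52 in SiC and 4.02, 3.80 and 3.89 in Si2AK; 1.68 ± 0.18, limma adjusted p = 0.000282), which stood at 4.03 to 4.55 with Si1AK.

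**Figure D5:**
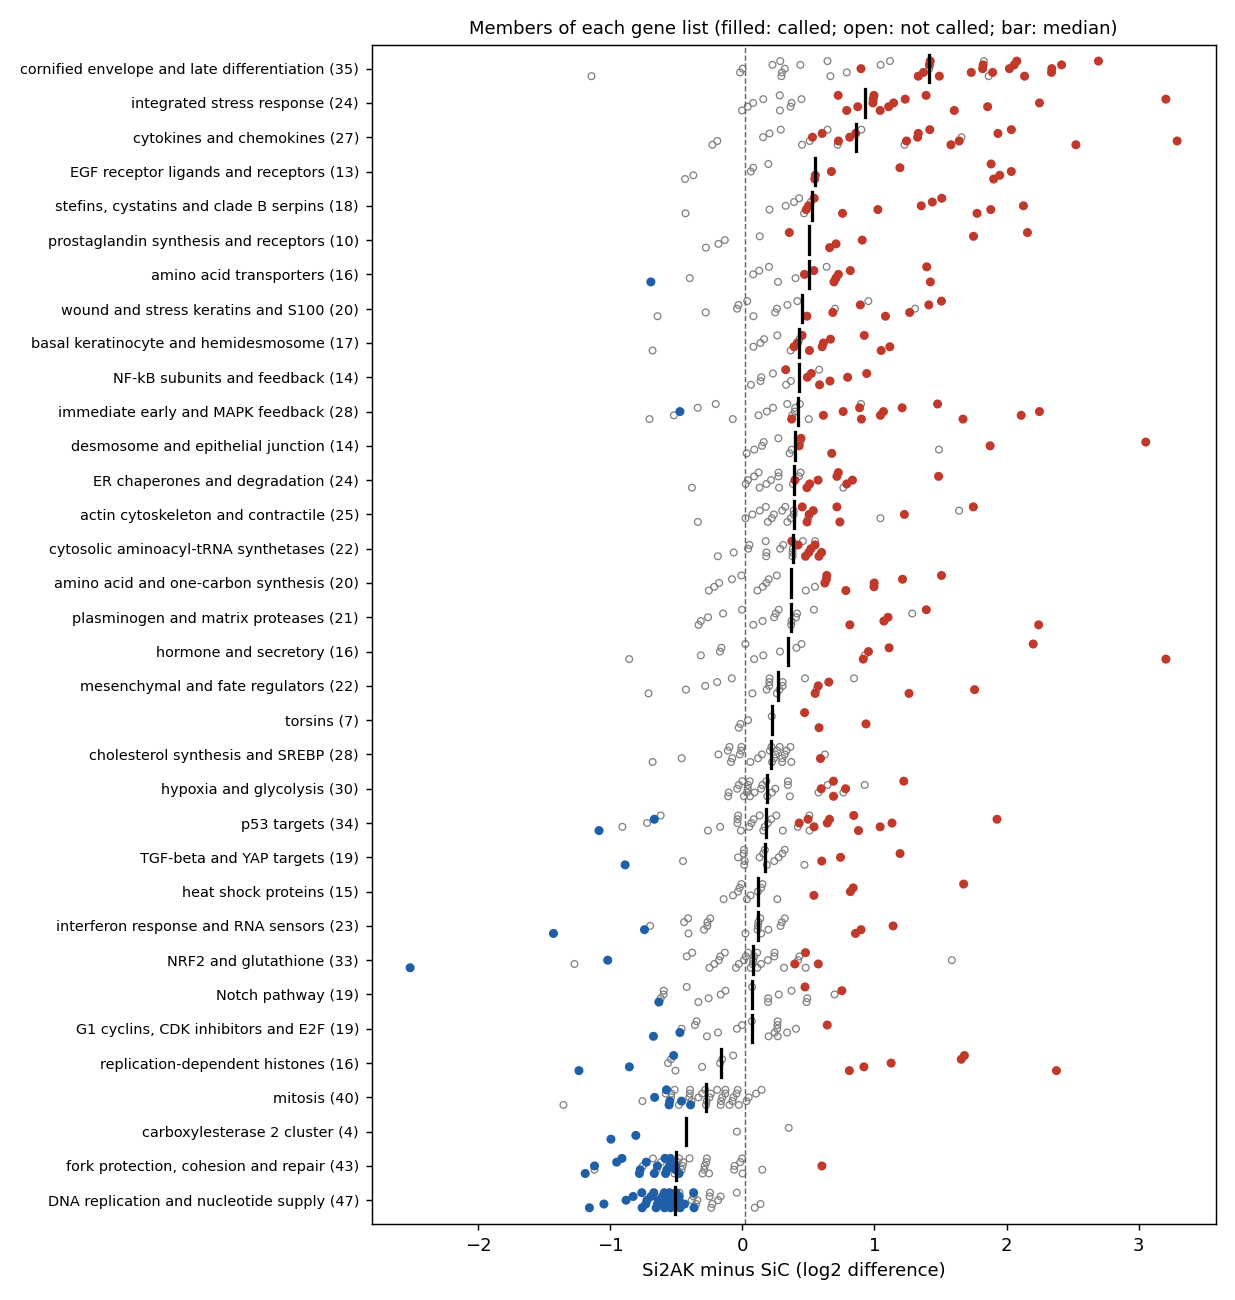
Log2 difference of Si2AK minus SiC (x axis) for every tested member of 34 gene lists (y axis, with the number tested), filled where called and open where not, with a bar at the list's median and a dashed line at the median of all genes, 0.02. The cornified envelope, integrated stress response and cytokine lists have the highest medians (1.42, 0.93 and 0.86), and the replication and repair lists the lowest (-0.51 and -0.51).

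Some of the largest differences sat outside these lists or near background. Gsta3 had levels of -1.94, -2.94 and -2.63 in SiC and -5.78, -3.89 and -5.39 in Si2AK (-2.51 ± 0.40), and its NT levels were -2.24 to -1.89. It was well above background on 2 of 3 Si2AK arrays and passed the filter only through SiC, so its difference is a description. Car6, a secreted carbonic anhydrase, went from -1.65, 0.05 and 0.07 to 1.47, 1.63 and 2.50 (2.38 ± 0.52, limma adjusted p = 0.0124). Lipa, the lysosomal acid lipase, went from 0.55, 0.88 and 0.94 to -1.07, -1.03 and -0.42 (-1.63 ± 0.16, limma adjusted p = 0.000195), and Ccnb1ip1, a ubiquitin ligase, from -0.03, -0.45 and -0.83 to -1.88, -2.04 and -2.42 (-1.68 ± 0.23, limma adjusted p = 0.00108). Mlph fell by 1.65 (limma adjusted p = 0.00493) and the noradrenaline carrier Slc6a2 by 2.01 (limma adjusted p = 0.00382).

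In 4 genes with large falls the Si2AK probe was not well above background on any array, so only a bound can be given. A bound sets the mean of the bright group against the dimmest signal that counts as well above background, or the probe's own where that is higher. Mrgprx2 was at -1.19, -2.31 and -3.66 in SiC and at least 7.99-fold higher there than in Si2AK. The bound was at least 8.29-fold for Lrrc10b, 4.62-fold for Clec12a and 3.06-fold for Cdh7. These 4 genes passed the filter only through the SiC arrays, where they were bright, so their falls are a description, with no test. The measured means of Mrgprx2 were -2.39 in SiC and -7.15 in Si2AK. The NT and Si1AK arrays were dim too, for Mrgprx2 at -7.46 to -6.52 and -8.05 to -7.61, and the 3 SiC arrays were the brightest of the 14. Si2AK minus NT was -0.20, 0.19, 0.04 and 0.06 for the 4 genes, and SiC minus NT was 4.57 for Mrgprx2. Slco1a1 (-2.47 ± 0.58, limma adjusted p = 0.0177) and Scai (-2.04 ± 0.50, limma adjusted p = 0.0211) were also low against SiC, with Si2AK minus NT at -0.14 and -0.02. Trex2, an exonuclease gene, was dim on all SiC arrays and at least 4.19-fold higher in Si2AK. It passed the filter only through the Si2AK arrays, so this too is a description.

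Against Si1AK, the other siRNA directed at AK144841, 1222 genes were higher with Si2AK and 1111 lower, 11.2% of those tested. Against SiC, Si1AK gave 590 genes called higher (2.82%) and 216 lower (1.03%), 3.85% in all. The 2333 calls between the siRNAs became 1520 without Si2AK replicate 2. The 2 siRNAs share the SiC arrays, so their values are given side by side. Among genes called against SiC with both siRNAs, 283 went the same way and 62 opposite ways, where 12.4% of all genes were called with Si2AK and 3.85% with Si1AK. The shared arrays favour the same direction, so these counts are a description. Tac1, Gpt2, Fzd5, Aqp1 and Ces2c were chosen because they were called in opposite directions against those arrays, so their differences between the siRNAs are a description, with no test. Tac1, which encodes substance P, was at -3.98, -4.45 and -5.18 in SiC, -2.86, -2.85 and -1.84 with Si2AK and -7.44 to -5.45 with Si1AK, and it was not well above background on any Si1AK array, so that Si2AK was at least 8.93-fold above Si1AK. The bound is formed as above, with Si1AK as the dim group, and the measured means were -2.52 and -6.62. Gpt2, a transaminase, stood at 1.10, 1.28 and 1.39 in SiC, 2.59, 2.41 and 2.40 with Si2AK and -0.37 to 0.21 with Si1AK, a difference between the siRNAs of 2.60. Fzd5, a Wnt receptor gene, differed between the siRNAs by 2.22. In the other direction Aqp1, a water channel, was at -1.33, -1.77 and -1.56 in SiC, -3.23, -3.06 and -3.26 with Si2AK and -0.86 to -0.36 with Si1AK (Si2AK minus Si1AK -2.63). The carboxylesterase genes Ces2c and Ces2e fell by 0.99 and 0.81 with Si2AK (limma adjusted p = 0.00627 and 0.00648), and their Si1AK levels of 0.77 to 1.26 and 3.72 to 4.33 lay above SiC at 0.34, -0.50 and -0.35 and 2.42, 2.45 and 2.40. Tor2a, a torsin, rose by 0.58 ± 0.13 with Si2AK (limma adjusted p = 0.0122, and 0.0774 without both outlying arrays) and was at -0.62 to -0.29 with Si1AK, a difference between the siRNAs of 2.68. Its list was chosen with earlier results of these data known, so the difference between the siRNAs is a description here too.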

How the data were processed

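Total RNA of 14 cultures of mSCC-38 cells was labelled with Cy3 and hybridised to an Agilent 1-colour array. The deposited scanner files hold processed signal intensity and 0 or 1 marks for signal well above background, written by Agilent Feature Extraction 10.7.3.1 per the file headers. The value table that the authors deposited is on a log2 scale, and limma is named in the submitters' processing notes with no version. Its columns had a median of 6.51 each and correlated with the log2 mean signal of their arrays at 0.991 or more; the remaining steps behind it are not given in the sources used here.

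Here log2 intensity minus each array's 75th percentile was used. Control spots and spots flagged as outliers were left out, spots of a probe were averaged, and 29530 probes well above background on every SiC or every Si2AK array were kept. The brightest of the kept probes stood for a gene, giving 20922 genes, of which 302 lacked 309 values. For those the fit used the remaining arrays. Groups were compared with limma 3.58.1 in R 4.3.3 over all 14 arrays (10 residual degrees of freedom) with Benjamini-Hochberg adjustment. Of 55681 probes 27736 were named through RefSeq (GRCm38.p6) accessions and 27945 kept the array's name; probe positions are mm9, and exon or UTR positions were not used here. The script was tested on simulated data.

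Members and lists were chosen with earlier results of these data known. Named genes were the 12 largest differences each way that were kept without both outlying arrays, up to 6 called members of a list each way, up to 4 defining members not called, and up to 4 genes each way called in opposite directions with the 2 siRNAs. Atf5, Cdc6, Chac1, Crct1, Cxcl3, Cxcl5, Egfr, Eif2ak3, Il1b, Il33, Lce3d, Mcm6, Mcm7, Pcna, Ppbp, Serpinb5, Sprr1a, Sprr2k and Tgfa fall outside this rule and were chosen after their values were seen. The number of arrays limits the precision. Alternatives covered each array left out, both outlying arrays left out, other scaling, background correction and filters, the authors' table, the mean over probes, 6 arrays alone, array weights, slides and replicate number. The values of a few list members are not reported here, though they are included in the counts.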

Additional observations from a re-analysis of the deposited data

Results flagged for a closer look

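Among the named genes, 48 groups of 4 arrays (NT and Si1AK) were tested for a value standing apart, and 2 held one, where chance gives about 1 in 20. The Csf2 level of 1 Si1AK array was -0.12, and the other 3 lay between 0.24 and 0.30. The Hist2h3c2 level of 1 NT array was -2.27, where the highest of its group was -1.62.

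The 8 genes called in opposite directions against SiC with the 2 siRNAs and named by the rule are listed for a difference between the siRNAs. That difference follows in part from the choice, so the values are a description, with no test. Si2AK minus Si1AK was 4.10 for Tac1, 2.76 for Serpinb1a, 2.60 for Gpt2 and 2.22 for Fzd5. It was -2.63 for Aqp1, -2.41 for Mmrn2, -2.16 for Ces2c and -2.15 for Mogat2. Tac1 was not well above background on any Si1AK array, so there the difference amounts to a bound of at least 8.93-fold. The SiC arrays serve both comparisons with SiC, so the opposite signs are a description of the choice.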

How the results depend on the processing

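The 203 genes counted here are those named by the rule that were called, without the defining members not called. The 12 largest differences each way also had to keep their call without both outlying arrays. None of the 203 changed direction under the alternatives run, which follows in part from the choice of called genes. The filter on all 14 arrays left 192 of them. Among all 2587 called genes the sign turned in 19 with the mean over probes, 15 after quantile normalization, 8 in the authors' value table, 2 after normexp with quantile normalization and 1 with no filter. Leaving out 1 array at a time gave 950 to 1844 genes called higher and 513 to 1068 lower, and kept the calls of 153 to 185 of the 203. The lowest counts, 950 and 513, came without Si2AK replicate 1, and the highest came without SiC replicate 3 (1844 higher) and without SiC replicate 1 (1068 lower). Lower calls were 1928 with scaling on the probes well above background on all arrays, 1388 after quantile normalization, 1406 after normexp with quantile normalization and 1392 in the authors' value table. With no filter on dim probes, which tests 34942 genes, 889 were higher and 402 lower. With array weights there were 2899 higher and 1972 lower. There were 8 higher and 0 lower over the 6 arrays alone (3159 genes at an unadjusted p below 0.05), 798 and 306 within slide 1, and 139 and 98 within slide 2. Si2AK against Si1AK gave 1520 calls without Si2AK replicate 2. Calls of named genes held in 173 of 203 without both outlying arrays, 188 with the other scaling, 177 after quantile normalization, 174 in the authors' table, 152 with no filter, 114 within slide 1, 57 within slide 2 and 5 over 6 arrays. Slide as a block and array weights kept 201 each. Where no value above shows the cause of a change, the cause was not tested.

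Whether the replicate numbers pair the samples could not be told. Deviations of SiC and Si2AK arrays with the same number from their group means correlated at -0.67, -0.69 and 0.73 across genes. SiC replicate 1 and Si2AK replicate 2 stand apart and pull the means of their groups, so the other arrays of a group deviate the opposite way. Such signs can therefore arise with or without pairing. With the replicate block 1593 genes were called higher and 724 lower, and 189 of the 203 named genes kept their call; the desmosome list then had 3 genes called higher in place of 5.

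Of the 203 named genes 42 had over 1 probe, and in Trp63, Aars and Cdkn1a these differed in sign. Signal near background limits the dim genes: there only bounds or values with the number of arrays above background are given. The level of AK144841 was not analysed here, and the results describe 1 cell line at 1 time.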

Other observations

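Genes of other lists add to the description. Among torsins, ATPases of the endoplasmic reticulum and nuclear envelope, 3 of 7 tested rose and 0 fell, but 1 rose without Si2AK replicate 1 or without both outlying arrays. Tor3a went from 1.33, 2.17 and 2.24 in SiC to 2.85, 2.69 and 3.01 in Si2AK (0.94 ± 0.23, limma adjusted p = 0.0193), and Tor1b rose by 0.47 ± 0.12 (limma adjusted p = 0.0259), a call lost without both outlying arrays (limma adjusted p = 0.11). Of the small heat shock genes, Hspb2 rose by 0.84 ± 0.20 and Hspb1 by 0.82 ± 0.10 (limma adjusted p = 0.0176 and 0.000508). Among enzymes that supply NADPH, Me1 rose by 0.58 ± 0.11 and Pgd by 0.48 ± 0.14 (limma adjusted p = 0.00535 and 0.0442). The carriers and kinases of sugar use included Slc2a1, the GLUT1 carrier (0.69 ± 0.16, limma adjusted p = 0.0144), and Pfkfb4 (0.60 ± 0.15, limma adjusted p = 0.0233).

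Among matrix proteases, Adam8 rose by 1.10 ± 0.19 and Mmp1b by 1.07 ± 0.26 (limma adjusted p = 0.00318 and 0.0189). Among actin-binding proteins, Pdlim7 rose by 0.74 ± 0.10, Csrp1 by 0.72 ± 0.15 and Zyx by 0.51 ± 0.10 (limma adjusted p = 0.000938, 0.0095 and 0.00933). The secretory granule gene Scg5 went from -3.22, -3.68 and -3.72 to -2.64, -2.54 and -2.58 (0.95 ± 0.16, limma adjusted p = 0.00362), and Angptl6, an angiopoietin-like secreted protein, from 0.08, 0.23 and 0.35 to 0.92, 1.28 and 1.21 (0.92 ± 0.13, limma adjusted p = 0.00104).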
